A study of Arabidopsis thaliana with 6 samples.

Results

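The genes described are 10 Arabidopsis loci of lipolysis and peroxisomal fatty acid beta-oxidation, chosen by their locus identifiers without a threshold on their values. They are SDP1 (AT5G04040), PXA1 (AT4G39850), LACS6 (AT3G05970), LACS7 (AT5G27600), ACX1 (AT4G16760), ACX2 (AT5G65110), ACX3 (AT1G06290), ACX4 (AT3G51840), MFP2 (AT3G06860) and KAT2 (AT2G33150). All 10 were found among the 33602 genes of the count files and among the 25005 genes of the authors' deposited table. RNA was sequenced from whole seedlings, 1 day old, of wild-type Col-0 and of vil1-1, a mutant in VIL1, with 3 libraries of each genotype that the study design calls biological replicates. VIL1 encodes a PHD finger protein that acts with Polycomb repressive complex 2. Seeds of both genotypes had been stratified for 3 days at 4 °C and were grown at 22 °C in 16 h light and 8 h dark. The mutant is represented by a single allele, and the labels give no other difference between the groups.

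Germinating Arabidopsis seeds live on stored triacylglycerol until photosynthesis starts. The lipase SDP1 frees fatty acids at the oil body surface, the ABC transporter PXA1 brings them into the peroxisome, and the acyl-CoA synthetases LACS6 and LACS7 activate them. Acyl-CoA oxidases (ACX), the multifunctional protein MFP2 and the thiolase KAT2 then shorten the chain by repeated cycles of beta-oxidation, and the acetyl-CoA released feeds the glyoxylate cycle and gluconeogenesis.

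In the authors' deposited table KAT2 and MFP2, which act late in the spiral, rose in vil1-1, and the oxidase ACX1 fell. KAT2, the thiolase that releases acetyl-CoA, was 1.18-fold higher in vil1-1 (log2 fold change 0.24, SE 0.062, adjusted p = 0.00351), and MFP2, which hydrates and dehydrogenates the enoyl-CoA, was also 1.18-fold higher (log2 fold change 0.24, SE 0.069, adjusted p = 0.0102) in the authors' deposited table. ACX1, the oxidase for medium to long chains, was lower in the authors' deposited table, at 0.708 of its Col-0 level (log2 fold change -0.50, SE 0.086, adjusted p = 4.31e-07). The other 7 genes did not pass the adjusted p of 0.05 there. These 3 calls of 10 stand beside 7.13% of all genes in the authors' deposited table and 19.2% of its genes at the members' levels. In the shallow count files edgeR's default filter left 3 of the 10 for testing and called 0 of them, where 3.72% of all tested genes were called. In the counts the summed level of the 10 genes gave a log2 ratio (vil1-1 over Col-0) of 0.0. With single libraries left out this ratio ran from -0.08 to 0.08, a range that is not an interval of error. The summed log2 CPM had a spread (SD) of 0.12 between libraries of a genotype, so a small change is not excluded. No sum was tested in the authors' deposited table. There KAT2 and MFP2 held 46.3% and 19.6% of the members' CPM, and ACX1 held 4.95%.

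The promoters of these 3 genes are shown because they were the members called in the authors' deposited table. Each is the 250 bases before the annotated start of the gene in RefSeq's TAIR10.1 genome, written 5′ to 3′ on the gene's own strand. Capitals mark matches to the motifs searched.
ACX1, chr4:9428896-9429145, minus strand: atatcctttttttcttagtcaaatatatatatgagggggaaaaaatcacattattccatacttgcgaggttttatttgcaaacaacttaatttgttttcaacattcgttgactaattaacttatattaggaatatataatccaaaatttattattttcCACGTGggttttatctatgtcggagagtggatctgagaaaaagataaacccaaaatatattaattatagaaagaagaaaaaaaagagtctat
MFP2, chr3:2161485-2161734, plus strand: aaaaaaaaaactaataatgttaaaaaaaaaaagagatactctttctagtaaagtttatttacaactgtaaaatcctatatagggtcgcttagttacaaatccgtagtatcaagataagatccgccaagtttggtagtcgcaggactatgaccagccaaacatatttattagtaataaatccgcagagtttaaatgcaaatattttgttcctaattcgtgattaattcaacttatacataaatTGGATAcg
KAT2, chr2:14051401-14051650, minus strand: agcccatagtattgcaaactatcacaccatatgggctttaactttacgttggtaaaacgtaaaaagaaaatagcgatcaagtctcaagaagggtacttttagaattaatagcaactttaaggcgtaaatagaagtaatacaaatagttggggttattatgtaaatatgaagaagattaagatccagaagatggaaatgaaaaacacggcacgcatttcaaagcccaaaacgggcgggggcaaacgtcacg

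The motifs searched on both strands were the G-box CACGTG, its core ACGTG, the RY element CATGCA and TATCCA. Every G-box contains the ACGTG core on both strands. ACX1 was the only member with a G-box, from 92 to 87 bases before the start (positions -92 to -87), and the only member with the ACGTG core. Across 27443 promoters of the same length, 6.5% held a G-box and 22.9% the core. TATCCA was present in 13.6% of all promoters and in those of LACS7 (-153 to -148) and MFP2 (-8 to -3), where it lies on the opposite strand and reads TGGATA in the line above. The RY element was in 8.4% of all promoters and in none of the 10, and the KAT2 window held none of the 4 strings. These matches describe letters only, and no binding was measured.

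Several of the enzymes carry the peroxisomal targeting signal type 1, a tripeptide at the end of the protein. The end of the coding sequence is shown for those known to carry it, with the targeting codons in capitals and the stop codon in lower case.
LACS7, chromosome 5, plus strand: TCTAAACTGtga
ACX1, chromosome 4, minus strand: GCTAGGCTCtga
ACX4, chromosome 3, minus strand: AGCCGTCTCtaa
MFP2, chromosome 3, plus strand: TCACGGTTGtaa
The signal was thus present both in ACX1, lower in the authors' deposited table, and in MFP2, higher in it. KAT2, ACX2, ACX3 and LACS6 are known to be imported by the signal near the other end of the protein, the type 2 signal, which LACS7 carries as well.

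The libraries were shallow, with 46917 to 66546 gene counts and 7799 to 9015 genes detected in each. A single count was worth 15 to 21.3 CPM, the counts scaled to a library total of 1000000, and a count of 0 allows up to 3 counts, or 45.1 to 63.9 CPM (counting error only). VIL1 itself had 0 counts in all 6 libraries, so it could not check the genotype labels of these libraries. The authors' deposited table lists VIL1 at 14.2 CPM and a log2 fold change of -0.91 (adjusted p = 0.000309). Green tissue markers (RBCS1A, CAB1 and LHCB2.1) summed to 2560 to 3130 CPM per library. Root hair markers gave 0 or 1 count per library, with EXPA7 at 0 throughout, but 2 of the 3 were lower in the authors' deposited table, EXPA18 (-1.79, adjusted p = 0.0226) and COBL9 (-1.27, adjusted p = 0.000132), and EXPA7 had -0.67 (adjusted p = 0.22). Seed coat markers gave 0 to 2 counts, with BAN and TT12 at 0 throughout. Endosperm markers (EPR1, MAN7, EXPA2) had sums between 286 and 451 CPM in Col-0 but between 661 and 774 CPM in vil1-1, without overlap. EXPA2 carried this difference, with 237 ± 76 and 637 ± 43 CPM, whereas EPR1 had 98.2 ± 32.2 and 85.6 ± 81.5 CPM (SD, n = 3 each) and MAN7 had 2 counts and 1 count in all. In the authors' deposited table EXPA2 (1.07) and MAN7 (1.14) were higher and EPR1 (0.14, adjusted p = 0.384) was not called. In whole seedlings a change in the number of cells of a type and a change in RNA per cell cannot be told apart, and the part of endosperm or root hair cells in the member results was not tested.

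**Figure D1:**
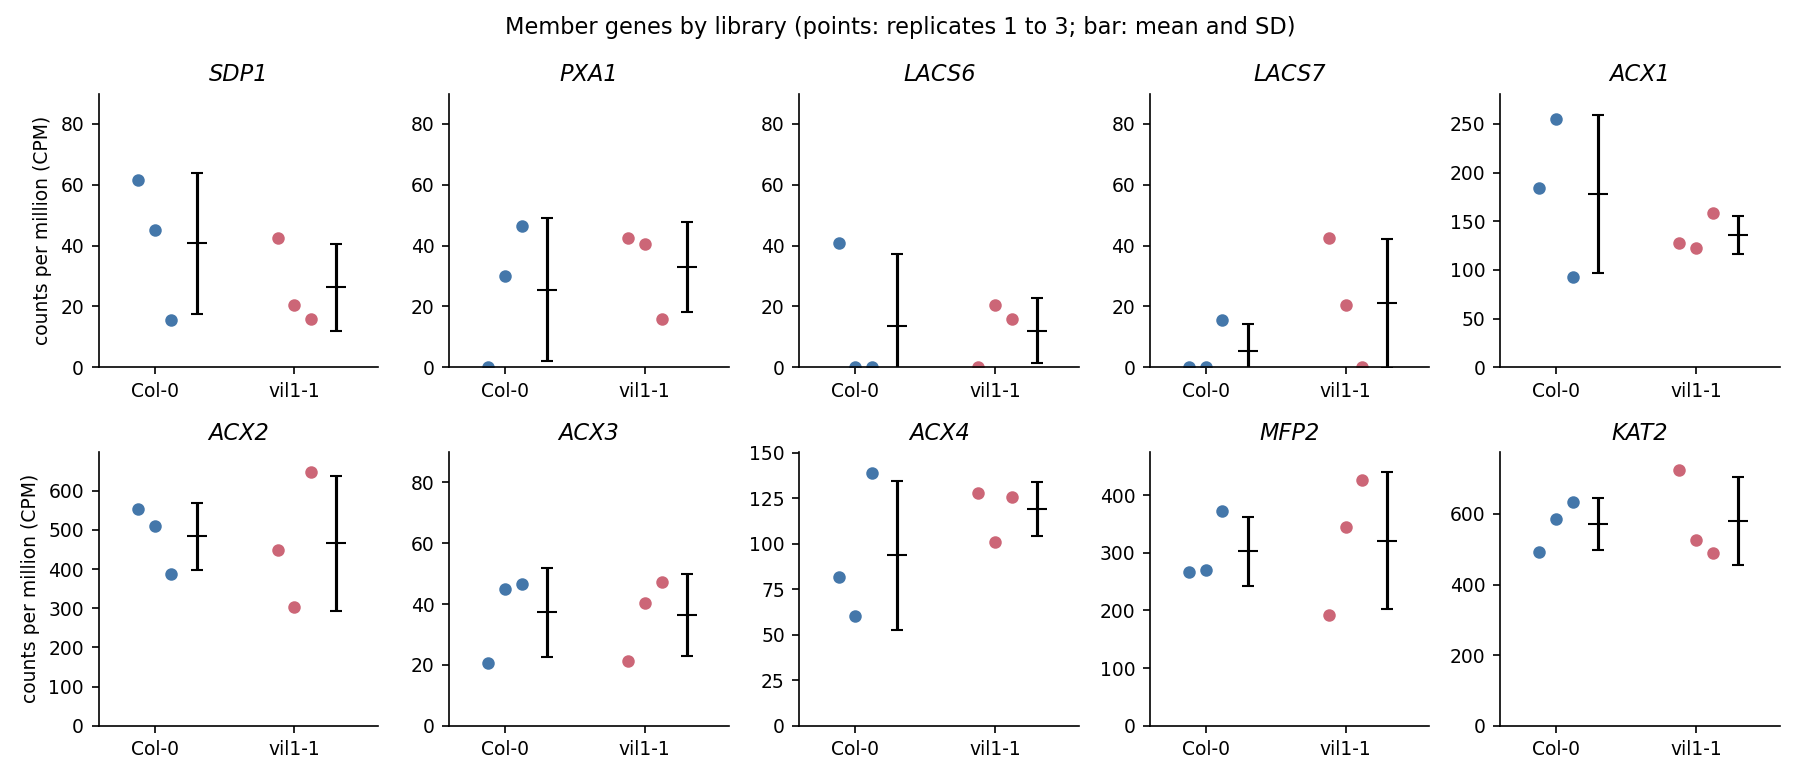
CPM of each of the 10 members in the 6 libraries (points, replicates 1 to 3 of Col-0 in blue and of vil1-1 in red), with the mean and SD of each genotype beside them and a scale of its own for each gene. The ranges of the genotypes overlap for every member, from KAT2 at 490 to 725 CPM down to LACS6 at 0 to 40.9 CPM.

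At the entry to the pathway, SDP1 (chromosome 5, 1089342 to 1093204, plus strand, TAIR10.1) showed counts of 3, 3 and 1 in the Col-0 libraries against 2, 1 and 1 in those of vil1-1. These stand for 40.7 ± 23.3 and 26.2 ± 14.4 CPM (SD, n = 3 each), and the ranges overlapped. For SDP1 the authors' deposited table gives 94.6 CPM and a log2 fold change of 0.13, with a 95% interval from -0.06 to 0.33 (adjusted p = 0.562). SDP1 did not pass the test, and its counts are too few to give a direction.

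Transport and activation were also near the limit of the counts. PXA1 (chromosome 4, 18488434 to 18497266, plus strand) showed counts of 0, 2 and 3 in the Col-0 libraries against 2, 2 and 1 in those of vil1-1. LACS6 (chromosome 3, 1786279 to 1791887, minus strand) showed counts of 2, 0 and 0 in the Col-0 libraries against 0, 1 and 1 in those of vil1-1. LACS7 (chromosome 5, 9742492 to 9747024, plus strand) showed counts of 0, 0 and 1 in the Col-0 libraries against 2, 1 and 0 in those of vil1-1. No direction can be read from such counts: the 3 genes together came to 18 counts, or 3.01% of the 598 member counts. In the authors' deposited table PXA1 had a log2 fold change of -0.07 (SE 0.114, adjusted p = 0.792), LACS6 -0.12 (SE 0.098, adjusted p = 0.597) and LACS7 0.07 (SE 0.102, adjusted p = 0.77). Intervals of 95% from those values ran from -0.29 to 0.16 for PXA1, from -0.31 to 0.07 for LACS6 and from -0.13 to 0.27 for LACS7.

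The oxidases differ in the chain length they prefer, and ACX1 had the largest change of the 10 members in the authors' deposited table. ACX1 (chromosome 4, 9424534 to 9428895, minus strand) showed counts of 9, 17 and 6 in the Col-0 libraries against 6, 6 and 10 in those of vil1-1. This is 184, 255 and 92.9 CPM against 128, 122 and 158 CPM. All 3 vil1-1 values lay between the lowest and the highest Col-0 value, so the genotypes overlapped. Means were 178 ± 81.5 and 136 ± 19.4 CPM (SD, n = 3 each), and the pooled ratio of vil1-1 to Col-0 was 0.775 with an exact 95% interval from 0.429 to 1.38 that covers counting error only. The 0.708 of the authors' deposited table lies inside that interval, as does no change. In the authors' deposited table ACX1 was called under Benjamini-Hochberg adjustment and was also the 1 member called under Bonferroni adjustment (p = 0.000166).

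ACX2, the long-chain oxidase (chromosome 5, 26009521 to 26012684, minus strand), showed counts of 27, 34 and 25 in the Col-0 libraries against 21, 15 and 41 in those of vil1-1. This is 553, 511 and 387 CPM against 448, 304 and 648 CPM, with the lowest and the highest value both in vil1-1. The edgeR log2 fold change was 0.03 (SE 0.253, 95% interval -0.48 to 0.53, adjusted p = 0.975). The authors' deposited table puts it at 0.04 with an interval from -0.11 to 0.19 (adjusted p = 0.825).

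ACX3, which prefers medium chains, and ACX4, the short-chain oxidase, did not pass edgeR's default filter. ACX3 (chromosome 1, 1922208 to 1926278, plus strand) showed counts of 1, 3 and 3 in the Col-0 libraries against 1, 2 and 3 in those of vil1-1, and a log2 fold change of -0.02 (SE 0.089, adjusted p = 0.936) in the authors' deposited table. ACX4 (chromosome 3, 19225360 to 19229341, minus strand) showed counts of 4, 4 and 9 in the Col-0 libraries against 6, 5 and 8 in those of vil1-1, or 93.8 ± 41 and 119 ± 14.9 CPM (SD, n = 3 each), with overlapping ranges. The log2 fold change of ACX4 in the authors' deposited table was 0.17 (95% interval 0.02 to 0.32), with an unadjusted p of 0.0296 that did not pass adjustment (adjusted p = 0.217). Of the 4 oxidases, then, 1 was lower, none was higher and 3 did not pass in the authors' deposited table. Among its genes at the members' levels 9.02% were called lower and 10.2% higher, and among all its genes 3.58% and 3.56%.

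MFP2 (chromosome 3, 2161735 to 2166357, plus strand) showed counts of 13, 18 and 24 in the Col-0 libraries against 9, 17 and 27 in those of vil1-1. This is 266, 270 and 372 CPM against 192, 345 and 427 CPM, and the vil1-1 values enclosed those of Col-0. The edgeR log2 fold change was 0.14 (SE 0.308, 95% interval -0.48 to 0.75, adjusted p = 0.902), an interval that holds both 0 and the 0.24 of the authors' deposited table.

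KAT2 (chromosome 2, 14047478 to 14051400, minus strand) showed counts of 24, 39 and 41 in the Col-0 libraries against 34, 26 and 31 in those of vil1-1. This is 491, 586 and 635 CPM against 725, 527 and 490 CPM, and the vil1-1 values again enclosed those of Col-0. The edgeR log2 fold change was 0.02 (SE 0.231, 95% interval -0.44 to 0.48, adjusted p = 0.984). That interval, too, holds the 0.24 of the authors' deposited table.

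**Figure D2:**
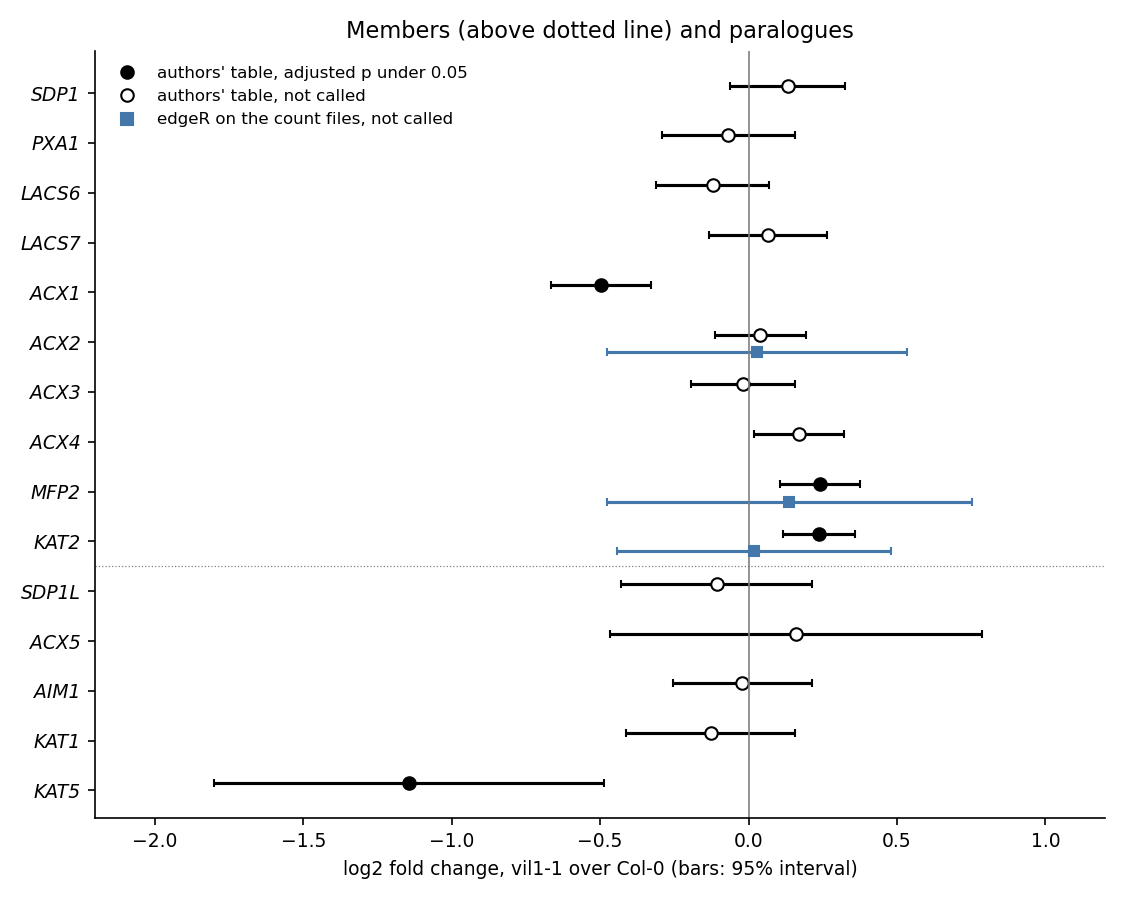
Log2 fold changes of vil1-1 over Col-0 with 95% intervals for the 10 members and, under the dotted line, 5 paralogues (ACX6, at 1.32 CPM, is left out). Circles are the authors' deposited table, filled where the adjusted p is under 0.05 (ACX1 at -0.50, MFP2 and KAT2 at 0.24, KAT5 at -1.14), and squares are edgeR values from the counts, which exist for 3 members and whose intervals all span 0.

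Across the whole table edgeR tested 942 genes and called 35, or 3.72%. Its filter on low counts kept only ACX2, MFP2 and KAT2 of the 10 members, and 0 of these 3 were called. None of the 3 had an unadjusted p under 0.05 either, and limma-voom, on the same genes, also called 0. With no filter, or with every gene above 1 CPM in 3 or more libraries, all 10 members were tested and 0 were called, with 0 at an unadjusted p under 0.05. Over all genes these settings called only 21 of 14869 and 32 of 8801, so 0 of 10 says little about the members. DESeq2 gave an adjusted p for 5 members and called 0, where it called 9 of 1681 genes. With no filter the edgeR log2 fold change of ACX1 was -0.38 (SE 0.43, adjusted p = 0.772), that of ACX4 0.31 (SE 0.52, adjusted p = 0.884) and that of SDP1 -0.61 (SE 0.96, adjusted p = 0.865). Of the 10 members 3 passed in the authors' deposited table, against a background of 7.13% of all 25005 genes. Higher calls numbered 2 of 10 against 3.56% of all genes, and lower calls 1 of 10 against 3.58%. Better-expressed genes pass more often. Among the 2750 genes between the lowest and the highest member level in the authors' deposited table, 19.2% were called, 10.2% higher and 9.02% lower. Under Bonferroni adjustment 1 of 10 members passed, against 2.51% of all genes. The 10 members' median log2 fold change was 0.05 in the authors' deposited table, beside 0.02 for genes of the same level range and -0.05 for all genes.

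Summed over the 10 members, counts were 83, 120 and 113 in the Col-0 libraries against 83, 76 and 123 in those of vil1-1. This is 1700, 1800 and 1750 CPM against 1770, 1540 and 1940 CPM, with the lowest and the highest sum both in vil1-1. The means were 1750 ± 52.4 and 1750 ± 202 CPM (SD, n = 3 each), a log2 ratio of 0.00. The 4 oxidases summed to 792 ± 110 CPM in Col-0 against 757 ± 208 CPM in vil1-1, and MFP2 with KAT2 to 874 ± 126 and 901 ± 25.9 CPM (SD, n = 3 each). Neither pair of sums was separate.

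Levels per kilobase of exon were lowest for lipolysis, transport and activation in both kinds of file. In the authors' deposited table KAT2 stood at 818 CPM per kilobase, MFP2 at 272, ACX4 at 166 and ACX2 at 109 CPM per kilobase. ACX1 followed at 72.0, ACX3 at 59.2, LACS6 at 39.9 and LACS7 at 35 CPM per kilobase, with SDP1 at 25.8 and PXA1 at 11. The authors' deposited table gives no spread over libraries for these levels. In the count files KAT2 was also the highest, at 269 ± 43.2 CPM per kilobase (SD over all 6 libraries), but ACX2 came next at 177 ± 45.6, before MFP2 at 115 ± 31.2, ACX1 at 60.3 ± 22.2 and ACX4 at 54.8 ± 15.9. ACX1 and ACX4 differed by less than their spread. ACX3 stood at 14.6 ± 5.01 CPM per kilobase, and SDP1, PXA1, LACS7 and LACS6 at 9.11 ± 5.18, 5.46 ± 3.38, 5.32 ± 6.92 and 5.18 ± 6.62, levels that did not differ beyond their spread.

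The counts and the authors' deposited table thus differ in level from gene to gene. At its level in the authors' deposited table KAT2 would have 595 of the 339529 counts of the 6 libraries, and it had 195, a ratio of 0.328. LACS6 had 4 counts where 33.6 would be reached (ratio 0.119), LACS7 4 where 29.2 would be (0.137) and ACX3 13 where 50.6 would be (0.257). ACX2 went the other way, with 163 counts where 99.2 would be reached, a ratio of 1.64. Genes of the same level range had a median ratio of 0.589 with quartiles of 0.38 and 0.981, and 8 of the 10 members were under that median. Ratios as low as those of LACS6 and LACS7 were met by 1.31% and 1.89% of these genes.

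**Figure D3:**
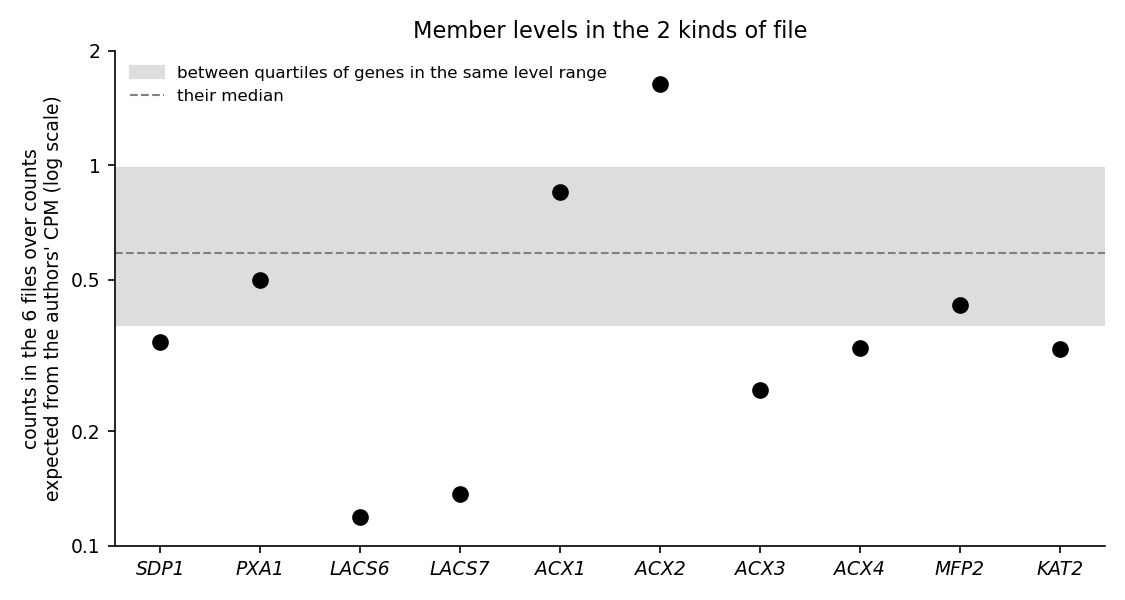
Counts of each member over the 6 libraries divided by the counts reached at its level in the authors' deposited table (points, log scale), with the range between the quartiles of genes at the same levels (grey band, 0.38 to 0.981) and their median (dashed, 0.589). LACS6, LACS7 and ACX3 lie well under the band, SDP1, ACX4 and KAT2 just under it, and ACX2, at 1.64, above it.

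Precision differed as well. Counting error alone gives ACX1 a standard error of 0.4 on the log2 scale from its 54 counts, where the F score of the authors' deposited table implies 0.086. For KAT2 the corresponding values were 0.207 and 0.062, and over the 10 members the counting error was 2.86 to 16.4 times the standard error implied by the authors' deposited table. The precision of that table is therefore finer than the deposited counts allow, and the libraries or reads behind it are not stated in the sources used here. The counts do not check its calls for these genes.

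The paralogues of the members ranged from 0.562 CPM per kilobase for ACX6 to 18.5 for AIM1 in the authors' deposited table. There AIM1 and KAT1 (18.1) stood above the member PXA1 (11) and below the other members. KAT5, a further thiolase, fell in vil1-1 in the authors' deposited table, where it stood at 5.59 CPM (log2 fold change -1.14, SE 0.335, adjusted p = 0.0127), opposite to KAT2, and had 1 count in all 6 libraries. KAT5, with 2489 exonic bases, overlaps SAD1 on the other strand by 160 bases. Without a stated strand setting, reads within that stretch cannot be told apart. The other thiolase KAT1 had -0.13 (adjusted p = 0.682), the MFP2 relative AIM1 -0.02 (adjusted p = 0.956) and the lipase SDP1L -0.11 (adjusted p = 0.767) in the authors' deposited table. There the oxidases ACX5 and ACX6 stood at 5.6 and 1.32 CPM and were not called (adjusted p = 0.826 and 0.687). Of the 6 paralogues 1 was called in the authors' deposited table, where 7.13% of all genes were called. None of the 6 passed edgeR's default filter. Coding sequences were 82.7% identical between ACX1 and ACX5, with a longest shared run of 47 bases, 88.8% between ACX3 and ACX6 (63 bases) and 81.1% between KAT2 and KAT1 (53 bases). How reads shared by such copies were counted is not stated in the sources used here, so small counts of ACX5, ACX6 and KAT1 are uncertain.

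Shares within a family were compared because they do not depend on the library total. Among the counts of ACX1 to ACX4, ACX1 held 21.7 ± 7.68% in Col-0 and 18.4 ± 2.73% in vil1-1 (SD, n = 3 each, exact two-sided permutation p = 0.6, adjusted p = 0.9). ACX2 held 60.9 ± 4.32% and 60.5 ± 6.38%, ACX3 4.86 ± 2.28% and 4.97 ± 2.1%, and ACX4 12.5 ± 7.42% and 16.1 ± 2.8%. MFP2 took 81.2 ± 7.79% of the counts of MFP2 and AIM1 in Col-0 and 88.8 ± 6.4% in vil1-1 (exact permutation p = 0.3, adjusted p = 0.9). KAT2 took 95.5 ± 2.42% of the thiolase counts in Col-0 and 98.8 ± 2.14% in vil1-1 (exact permutation p = 0.2, adjusted p = 0.9), with 92.9 to 97.6% and 96.3 to 100% in single libraries. None of the 6 shares tested passed, and with 3 libraries against 3 the exact test cannot go below 0.1. Pooled over libraries, LACS7 held 1 of 3 LACS counts in Col-0 and 3 of 5 in vil1-1, and SDP1 7 of 7 lipase counts in Col-0 and 4 of 6 in vil1-1, under the 10 counts per library required for a test.

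**Figure D4:**
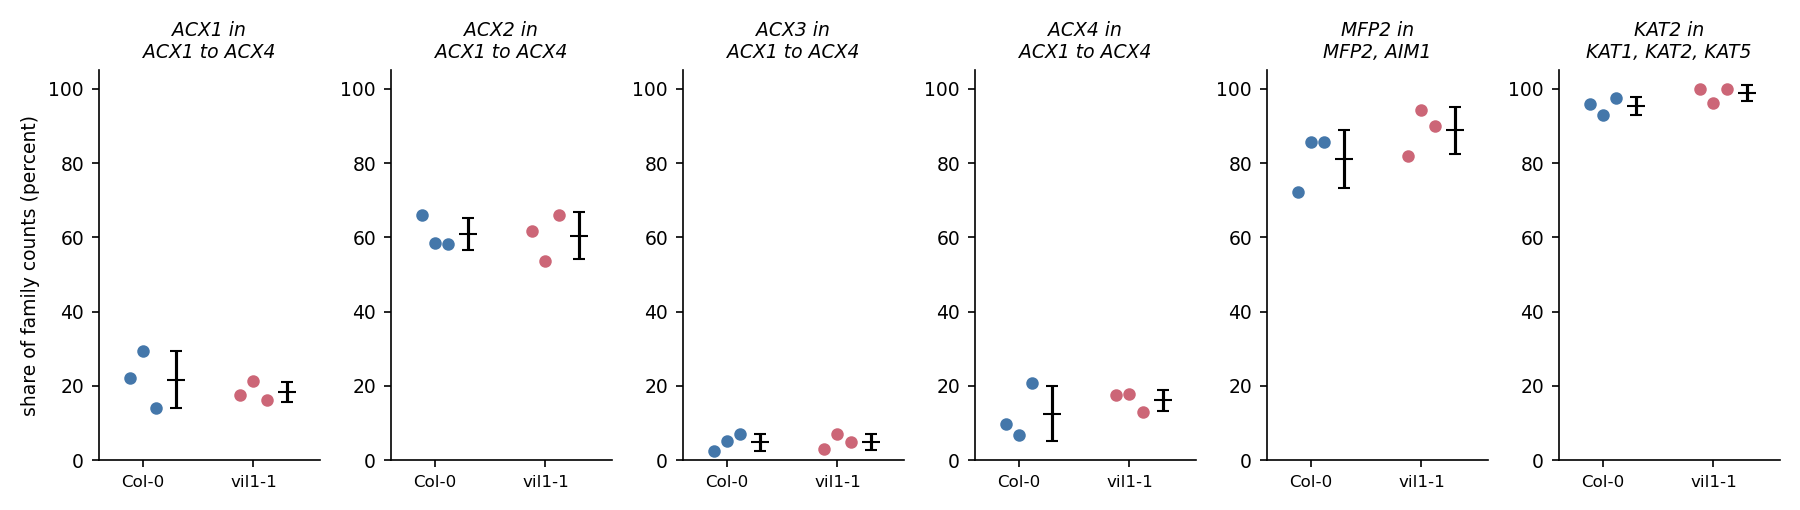
Share of each gene in the counts of its family, in percent, in each library of Col-0 (blue) and vil1-1 (red), with the mean and SD beside the points. ACX2 holds 53.6 to 66.1% of the ACX1 to ACX4 counts and KAT2 92.9 to 100% of the thiolase counts, and the genotypes overlap in every panel.

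Genes downstream, which convert acetyl-CoA to sugar, held several that were higher. Of 7 glyoxylate cycle and gluconeogenesis genes, the authors' deposited table called 4 higher and 0 lower, and the list median was 0.17. The background of higher calls was 3.56% of all genes and 10.2% at the members' levels, above which ICL, MLS and PCK1 lie. The 4 were the isocitrate lyase ICL (0.42, adjusted p = 4.05e-16), the peroxisomal citrate synthase CSY3 (0.30, adjusted p = 0.000669), the phosphoenolpyruvate carboxykinase PCK1 (0.20, adjusted p = 0.0148) and the malate synthase MLS (0.17, adjusted p = 0.0385), all from the authors' deposited table. In the counts ICL had 5670, 6220 and 5340 CPM in Col-0 against 7950, 8230 and 9370 CPM in vil1-1, with no overlap. Its edgeR log2 fold change was 0.60 (SE 0.117, adjusted p = 0.000358), and it was the 1 gene called among the 5 tested of this list. Over all tested genes edgeR called 3.72%. The counts gave MLS -0.06 (SE 0.151, edgeR adjusted p = 0.909), PCK1 0.07 (SE 0.166, edgeR adjusted p = 0.902) and CSY3 0.29 (SE 0.272, edgeR adjusted p = 0.734), none called and MLS with the opposite sign to the authors' deposited table. When all genes above 1 CPM in 3 or more libraries were tested, ICL was not called (0.53, edgeR adjusted p = 0.0681).

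Of 18 accessory genes of beta-oxidation, the authors' deposited table called 1 higher and 1 lower, and the list median was 0.14. Of all its genes 3.56% were called higher and 3.58% lower, and at the members' levels 10.2% and 9.02%. Several of the 18 lie below those levels, though both called genes lie within them. PMDH1, the peroxisomal malate dehydrogenase that reoxidises NADH, was higher (log2 fold change 0.25, SE 0.069, adjusted p = 0.00664) in the authors' deposited table. CAT3, a catalase, the class of enzyme that removes the hydrogen peroxide made by the oxidases, was lower (-0.38, SE 0.083, adjusted p = 0.000185) in the authors' deposited table. In the counts CAT3 had 757, 872 and 496 CPM in Col-0 against 512, 324 and 427 CPM in vil1-1, which overlapped through Col-0 replicate 3, and an edgeR log2 fold change of -0.72 (SE 0.243, adjusted p = 0.103). Leaving out Col-0 replicate 3 gave -0.95 (edgeR adjusted p = 0.017) and leaving out vil1-1 replicate 1 gave -0.88 (edgeR adjusted p = 0.0293), both past the threshold. Leaving out Col-0 replicate 2 gave -0.52 (edgeR adjusted p = 0.539) and leaving out vil1-1 replicate 2 gave -0.58 (edgeR adjusted p = 0.507), and no other setting called it. CAT2, the other catalase tested, had 0.37 (SE 0.253, edgeR adjusted p = 0.597). None of the 3 accessory genes tested by edgeR was called, where 3.72% of all tested genes were, while CAT3 had an unadjusted p of 0.00435.

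Of 24 peroxisome biogenesis genes, the authors' deposited table called 2 higher and 0 lower, and the list median was 0.14. Higher calls made up 3.56% of all its genes and 10.2% of those at the members' levels. Most of the 24, including the called PEX19-2 at a mean log2 CPM of 5.71, lie below those levels, which start at 5.88. PEX19-2, a chaperone of peroxisomal membrane proteins, had a log2 fold change of 0.49 (SE 0.119, adjusted p = 0.00119), and PEX13, a docking protein of the import machinery, 0.30 (SE 0.094, adjusted p = 0.0252), in the authors' deposited table. PEX13 had 13 counts in Col-0 and 9 in vil1-1, and PEX19-2 had 2 and 0. No gene of this list passed edgeR's default filter, and of the 23 tested with no filter 0 were called, with 0 at an unadjusted p under 0.05. With no filter only 21 of all 14869 genes were called. DESeq2 gave none of the 24 an adjusted p.

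**Figure D5:**
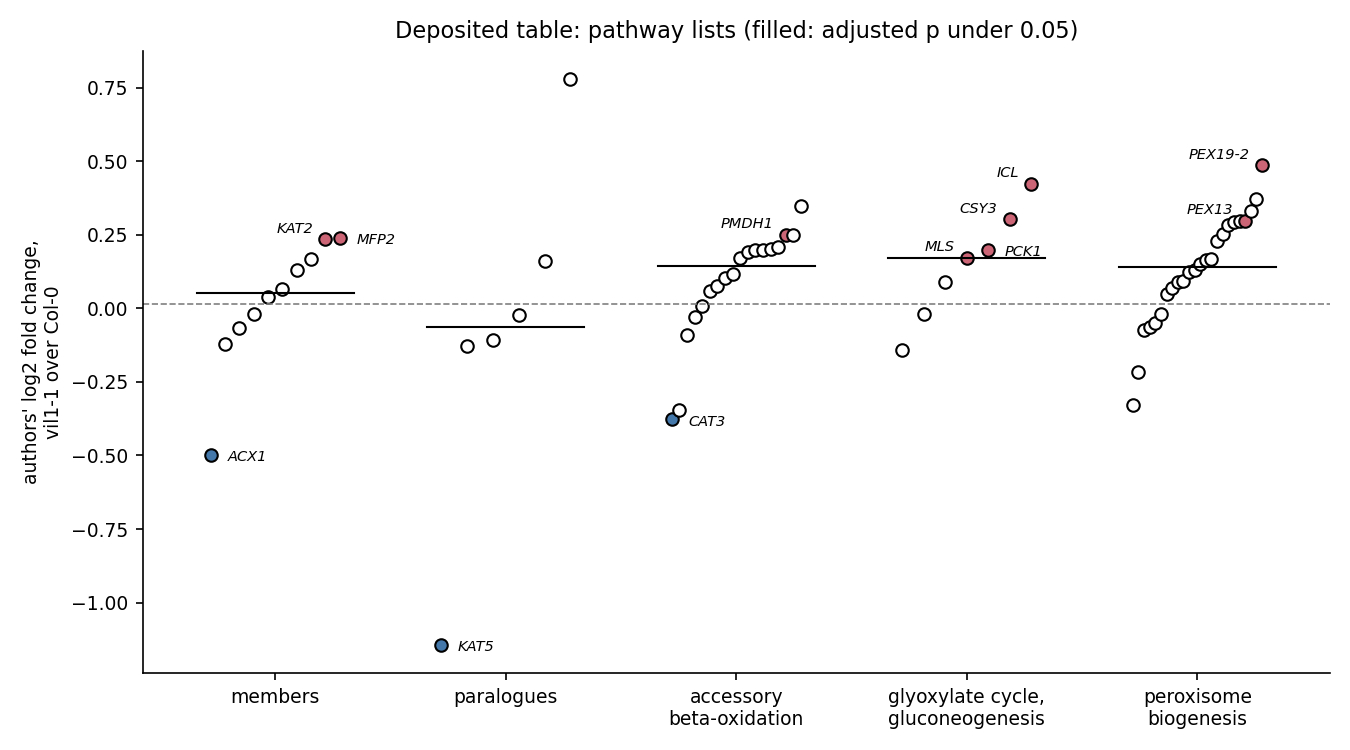
Log2 fold changes of vil1-1 over Col-0 in the authors' deposited table for the members, their paralogues and 3 related gene lists, each sorted by value; filled points (red higher, blue lower) have an adjusted p under 0.05, short lines are list medians and the dashed line is the median of genes in the members' level range (0.02). In the glyoxylate and gluconeogenesis list 4 of 7 genes are filled, all above 0, while the filled members lie on both sides of 0.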

How the data were processed

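RNA was sequenced from 3 Col-0 and 3 vil1-1 libraries of whole seedlings, grouped by the sample titles. The submitters' processing notes name Bowtie2, featureCounts, edgeR and TAIR10, without versions or order; kit and strand setting are not stated in the sources used here. The authors deposited raw counts per gene in a separate file for each library. The authors' deposited table gives for each gene the log2 fold change, the average log2 CPM, a score (F) and its p-value; it holds no adjusted p-values, so Benjamini-Hochberg values over its 25005 genes were added here. Standard errors from it are the absolute log2 fold change over the square root of F, and 95% intervals are 1.96 of these either side. CPM is counts scaled to 1000000 per library.

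Counts were tested with the quasi-likelihood method of edgeR 4.0.16 (R 4.3.3) on all genes passing its default filter, with TMM and genotype as the only term, and adjusted p under 0.05. The code was run on simulated counts with changes larger than those called for the members, so its power for smaller changes was not tested. Alternatives were DESeq2 1.42.0, limma-voom (limma 3.58.1), other scalings and filters, the replicate number as a block and each library left out. Exact permutation tests used scipy 1.17.1 on families with at least 10 counts in every library. No 2 libraries of a genotype agreed within sampling noise. No source says whether replicates came from separate seed lots, so p-values measure the spread between libraries. Sequences and gene positions came from RefSeq's TAIR10.1; TAIR10 counts were joined by locus identifier only.

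The members are a list of pathway loci, and no measured value enters the rule, but this pathway and the gene lists were chosen with earlier results of these data known. Genes named were all members, paralogues and VIL1, and from each pathway list up to 4 called genes by smallest p in either source. Cell type markers were named as lists, and CAT2 was added after its values were seen.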

Additional observations from a re-analysis of the deposited data

How the results depend on the processing

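In the counts 0 members were called under every alternative, but few could be tested. Fits with the default filter tested 3 or 4 of the 10, and DESeq2 gave an adjusted p for 5. The settings that tested all 10 called 21 of 14869 genes (no filter) and 32 of 8801 (CPM above 1). At such shares 0 of 10 is not a sign of stability. The genes called overall fell from 35 to 9 with DESeq2 and to 21 with no filter, and ranged from 19 to 36 with each library left out, the lowest without vil1-1 replicate 2. With no filter the median log2 fold change of all genes moved to 0.10. Under Bonferroni adjustment 1 of the 3 member calls in the authors' deposited table was left, and leaving out libraries was not possible there. The fit with the replicate block called 35 genes and 0 members and changed no member call. Correlations between same-numbered libraries were 0.079, -0.033 and 0.019, beside -0.11 to 0.104 for the other pairs. At such low counts these values cannot decide whether replicate numbers pair the samples.

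The signs of the uncalled log2 fold changes were not stable, with 13 of 39 alternative values reversed. ACX2 had -0.02 with DESeq2 and with limma-voom, -0.01 without TMM and with no filter, and -0.04 with CPM above 1. KAT2 had -0.02 without TMM and with no filter, and -0.05 with CPM above 1. With each library left out, ACX2 ranged from -0.31 to 0.24, KAT2 from -0.18 to 0.16 and MFP2 from -0.13 to 0.36. Differences in shares (vil1-1 minus Col-0, percentage points) turned for ACX1, ACX2 and ACX3. Pooled counts gave 1.5 for ACX2 and -0.1 for ACX3. Leaving out libraries gave -7.2 to 0.4 for ACX1, -3.2 to 3.1 for ACX2 and -1.1 to 1.2 for ACX3. The differences of ACX4, MFP2 and KAT2 stayed positive in every alternative. With libraries left out they were 0.8 to 7.8, 3.0 to 11.0 and 2.0 to 4.5. The causes were not tested. The default filter left 3 of the 10 members, and the looser filters tested all 10 with wide errors.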

Other observations

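Genes named here were chosen after their values were seen. Just outside the threshold in the authors' deposited table lay PNC1, a peroxisomal adenine nucleotide carrier that supplies ATP for fatty acid activation, with a log2 fold change of 0.35 (SE 0.122, adjusted p = 0.0582). The 2 receptors for imported matrix proteins were close to it as well in the authors' deposited table, PEX5 (type 1 signal) with 0.37 (SE 0.133, adjusted p = 0.0651) and PEX7 (type 2 signal) with 0.33 (SE 0.127, adjusted p = 0.0947). PEX11A, of a family that acts in peroxisome division, had -0.33 (SE 0.128, adjusted p = 0.111) in the authors' deposited table. None of these 4 passed, and none passed edgeR's default filter on the counts. Positive log2 fold changes in the authors' deposited table were held by 18 of 24 peroxisome biogenesis genes, 14 of 18 accessory genes, 6 of 10 members and 2 of 6 paralogues, called or not, beside 44.9% of all its genes and 53.7% of those at the members' levels. The paralogues, most biogenesis genes and several accessory genes lie below those levels, so the 53.7% is not matched to them.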
